A study of Mus musculus with 10 samples.

Results

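Lipocalin 2, lactotransferrin and 8 further secreted or secretion-linked genes of acute phase, antimicrobial and mucosal defence were followed across the salivary gland cells of NOD/shiLtJ mice. They form a list of 10 genes (Lcn2, Ltf, Lpo, Pigr, Slpi, Saa3, Hp, Lbp, Orm1 and Cp). The list was chosen with earlier results of these data known. Each gene was read from its 1 probe set with a single gene symbol. All 10 were on the array and passed the filter on dim probe sets, among 18826 genes kept. The study measured 10 Affymetrix arrays of female mice of this inbred strain, in which diabetes and salivary gland inflammation arise spontaneously, and the labels name no introduced allele or agent. The groups were 4 samples of mice with type 1 diabetes at 21 weeks, and 3 each of nondiabetic mice at 21 and 6 weeks of age. All samples were cells that had been freed from salivary gland tissue with dispase II and collagenase IV. The labels do not say which salivary gland was taken, how diabetes was established or how long it had lasted. The sample descriptions give mice and a number, and do not say whether each sample came from 1 mouse.

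The acute phase response is a change in secreted proteins that follows inflammation or injury, driven by cytokines such as interleukin-6 and interleukin-1 through the factors STAT3, C/EBP and NF-kB. Most of its plasma proteins come from the liver, but epithelia, macrophages and fat make several of them. Saliva carries its own set of defences: lactoperoxidase (Lpo) oxidises thiocyanate to an antibacterial product, lactotransferrin (Ltf) and lipocalin 2 (Lcn2) withhold iron from bacteria, and the polymeric immunoglobulin receptor (Pigr) carries IgA across the epithelium. In bulk RNA, fewer cells of a type and less RNA per cell cannot be told apart.

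Values are log2 intensities, so a difference of 1 is a 2-fold change. The 25th percentile of an array lay between 2.58 and 2.70 and its median between 3.53 and 3.69, and values near the 25th percentile are close to background. Changes are given with the standard error of a limma fit of all 10 arrays. A gene was said to rise or fall where its Benjamini-Hochberg adjusted p over all genes was under 0.05. The p-values measure the spread between these samples, which the labels number separately within each group. The number of arrays limits the precision.

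Marker genes of several gland cell types also differed between the arrays. Markers of parotid serous acini (8 of 8 kept) had a mean of 10.79 to 11.10 in the diabetic arrays, 6.31 to 8.13 in the nondiabetic 21-week arrays and 6.76 to 9.63 at 6 weeks. Markers of the granular convoluted tubule of the submandibular gland (7 of 10 kept) had means of 4.24 to 6.48, 9.32 to 10.32 and 8.09 to 8.61 in the same order. Array 3 of the nondiabetic 21-week group correlated less with the others (0.901 to 0.930) than those 9 did among themselves (0.940 to 0.975). Diabetic array 4 was high in lymphocyte markers (a mean of 5.78 over 9 genes, against 4.30 to 4.48 in the other diabetic arrays). The part of these differences in the results below was not tested.

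The sequence before the start site is shown for the 4 called members that the RefSeq promoter table holds, since they rose in at least 1 comparison. The table holds 7 of the 10 members, Lbp, Hp and Orm1 not among them. Each line is the 250 bases before a start site on the gene's strand, 5′ to 3′, in build GRCm38.p6 of the C57BL/6J reference, not of NOD mice. Of the 2 start sites listed for Cp, the one with more motif matches is shown. Capitals mark matches to the motifs searched.
Lcn2 (chr2:32387740-32387989, minus strand): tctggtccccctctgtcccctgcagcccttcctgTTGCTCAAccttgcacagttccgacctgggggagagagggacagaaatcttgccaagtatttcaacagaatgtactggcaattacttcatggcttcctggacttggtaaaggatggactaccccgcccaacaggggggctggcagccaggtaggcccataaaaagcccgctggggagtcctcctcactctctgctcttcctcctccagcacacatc
Ltf (chr9:111019042-111019291, plus strand): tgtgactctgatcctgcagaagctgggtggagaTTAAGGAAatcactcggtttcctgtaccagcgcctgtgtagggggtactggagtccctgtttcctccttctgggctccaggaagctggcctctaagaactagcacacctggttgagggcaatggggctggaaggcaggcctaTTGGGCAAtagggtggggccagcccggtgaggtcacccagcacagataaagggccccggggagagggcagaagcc
Cp (chr3:19956999-19957248, plus strand): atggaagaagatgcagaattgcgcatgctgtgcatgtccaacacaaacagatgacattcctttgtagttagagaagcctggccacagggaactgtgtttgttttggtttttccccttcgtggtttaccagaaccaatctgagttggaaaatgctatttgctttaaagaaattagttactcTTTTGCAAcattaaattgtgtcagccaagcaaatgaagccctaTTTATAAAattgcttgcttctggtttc
Pigr (chr1:130826434-130826683, plus strand): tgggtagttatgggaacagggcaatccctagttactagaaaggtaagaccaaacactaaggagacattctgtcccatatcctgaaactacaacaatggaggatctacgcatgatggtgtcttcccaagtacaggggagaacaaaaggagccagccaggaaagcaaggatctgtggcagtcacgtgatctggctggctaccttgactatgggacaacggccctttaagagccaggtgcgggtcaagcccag

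Both strands were searched for the C/EBP motif TTNNGNAA, the STAT motif TTCNNNGAA, the TATA box TATAAA and the NF-kB motif. The C/EBP letters stood in at least 1 promoter of 6 of the 7 members, Pigr being the exception, and in 36.8% of all 32851 promoters of this length. In Lcn2 the match lay 216 to 209 bases before the start on the opposite strand. In Ltf the matches lay 217 to 210 and 75 to 68 bases before it. TATA box letters were found in 12.4% of all promoters and among the members only in Cp, on both strands, where the matches overlap each other. No member promoter held the STAT letters, which 7.02% of all promoters hold, or the NF-kB motif, which 7.25% hold. A match is a description of letters in this window, not a binding site.

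**Figure D1:**
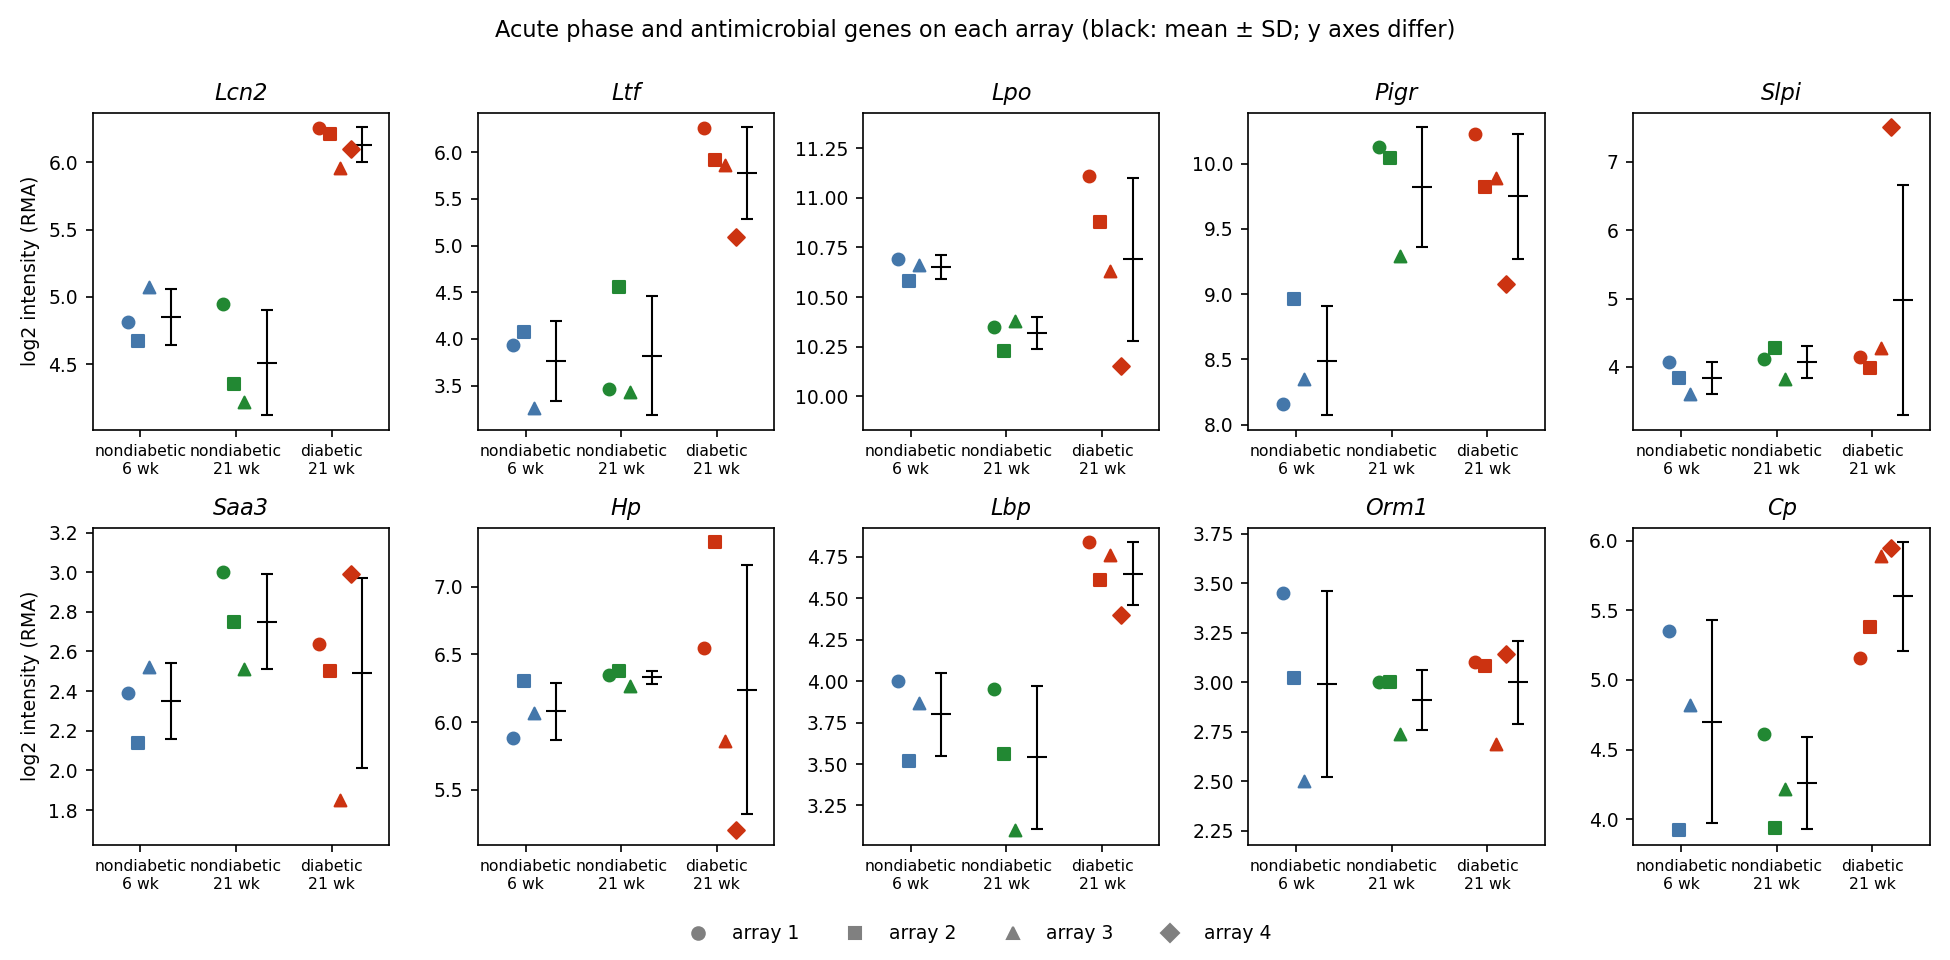
Log2 intensity of each of the 10 genes (vertical axes, each with its own range of at least 1.6) on every array of the 3 groups (horizontal axis), with black bars for the mean ± SD. The diabetic arrays lie above all others for Lcn2, Ltf and Lbp, and Slpi stands at 7.51 on diabetic array 4 alone.

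The first comparison set the diabetic mice against nondiabetic mice of the same age. Of the 10 genes, 4 rose (Lcn2, Ltf, Lbp and Cp), 0 fell and 6 did not pass. Over all 18826 genes, 1.44% passed and 1.1% rose (207 rose and 64 fell, or 130 and 100 after quantile normalization). The median log2 change was 0.64 over the 10 genes and 0.03 over all genes. Because the list was chosen with earlier results known, setting it beside all genes is a description only. For the same 4 genes every diabetic array lay above every nondiabetic one. Over all genes 14.1% had no overlap between these groups, 9.11% higher and 4.98% lower in diabetic mice.

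Lcn2, the iron-siderophore binder that epithelia and neutrophils release, stood at 6.25, 6.21, 5.96 and 6.10 on the diabetic arrays and at 4.95, 4.35 and 4.22 on the nondiabetic 21-week arrays. All 4 diabetic arrays lay above all 3 nondiabetic ones, and the diabetic values were close together (SD 0.13, against 0.39). The rise was 3.08-fold (log2 change 1.62 ± 0.17, adjusted p = 0.000608), and Lcn2 ranked 16 among all genes by p. The call held in each of 20 alternative fits, leave-one-out included, with adjusted p from 0.000296 to 0.00558.

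Ltf, an iron-binding antimicrobial protein of glandular epithelium and of neutrophil granules, stood at 6.26, 5.92, 5.86 and 5.09 in the diabetic group and at 3.46, 4.56 and 3.43 in the nondiabetic group of the same age. Diabetic array 4 was the lowest of its group and nondiabetic array 2 the highest of its own, and the groups did not overlap. The rise was 3.91-fold (1.97 ± 0.32, adjusted p = 0.00951), and adjusted p was 0.0611 without nondiabetic 21-week array 3.

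Muc19, the main mucin of sublingual mucous cells, was 11.70, 11.50, 11.66 and 10.62 on the diabetic arrays, 2.03, 10.86 and 4.70 on the nondiabetic 21-week arrays and 8.42, 9.95 and 7.55 at 6 weeks. The array with the highest Muc19 was also the one with the highest Ltf in each of the 3 groups. Over the mucous list (7 of 8 kept), the mean was 5.56 to 6.23, 4.34 to 5.67 and 5.25 to 5.64. Muc19 is itself in this list and varied widely, so the mean is not separate from it. With diabetes 1 of the 7 rose (Galnt12) and 0 fell by limma, with a median change of 0.37. Smgc, a submandibular and sublingual mucin, had no single-symbol probe set in the table used and was not analysed here. The part of mucous cells in the Ltf result was not tested.

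Markers of neutrophils, another known source of Ltf and Lcn2, were dim. Of 14 listed, 10 were kept, and their mean was 2.91 to 3.51 on the diabetic arrays, 3.03 to 3.15 on the nondiabetic 21-week arrays and 2.92 to 3.09 at 6 weeks. The defining markers S100a8 and S100a9 each exceeded the 25th percentile on 1 array, diabetic array 4 (3.0 and 3.41). With diabetes 0 of the 10 passed by limma, and 0 had an unadjusted p under 0.05, against 15.8% of all genes. The means of the kept markers lay below every array's median, where a change may not be detectable. The part of neutrophils in the Ltf and Lcn2 results was not tested.

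Lbp, which hands bacterial lipopolysaccharide to CD14, stood at 4.84, 4.61, 4.76 and 4.40 on the diabetic arrays and at 3.95, 3.56 and 3.10 on the nondiabetic ones. The groups did not overlap. It rose 2.17-fold (1.12 ± 0.19, adjusted p = 0.0151). Adjusted p was 0.064 without nondiabetic 21-week array 3 and 0.0578 without diabetic array 3.

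Cp, the copper-carrying ferroxidase ceruloplasmin, stood at 5.16, 5.38, 5.89 and 5.95 on the diabetic arrays and at 4.61, 3.94 and 4.22 on the nondiabetic 21-week arrays. The groups did not overlap, and the diabetic value of 5.16 was the nearest to the nondiabetic range. The rise was 2.53-fold (1.34 ± 0.30, adjusted p = 0.0479), just inside the threshold. The call was lost on leaving out any one of diabetic arrays 2, 3 and 4, nondiabetic 21-week arrays 1, 2 and 3 and 6-week array 3, with adjusted p up to 0.151. Of 10 alternative fits it held in 6, with adjusted p from 0.0275 to 0.171. It was lost with the replicate number as a block (0.0809). Of 8 fibroblast markers, all kept, 0 passed with diabetes by limma and 5 had an unadjusted p under 0.05, against 15.8% of all genes. Their mean was 5.82 to 6.23 on the diabetic arrays, 4.87 to 5.52 on the nondiabetic 21-week arrays and 5.25 to 6.63 at 6 weeks. At 6 weeks array 1 was the highest and array 2 the lowest in both. The defining fibroblast markers Dcn, Lum and Col1a1 were above the 25th percentile on all 10 arrays, and the part of these cells in the Cp result was not tested.

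Macrophages and adipocytes can also make acute phase proteins. Of 12 macrophage markers, 2 rose (Cd68 and Mrc1) and 0 fell, and their mean was 5.38 to 5.93 on the diabetic arrays, 4.78 to 5.02 on the nondiabetic 21-week arrays and 4.76 to 5.25 at 6 weeks. Of 9 adipocyte markers kept of 10, 3 rose (Pck1, Fabp4 and Retn) and 0 fell, with means of 4.47 to 4.75, 3.84 to 4.17 and 4.08 to 4.21. Over all genes 1.1% rose with diabetes and 0.34% fell. Adipoq, the defining adipocyte hormone, was dim, between 2.41 and 3.15 on all arrays, and higher on every diabetic array than on the nondiabetic 21-week arrays (0.40 ± 0.14), which did not pass (adjusted p = 0.202). The other defining markers, Plin1 (0.30 ± 0.17, adjusted p = 0.407) and Cidec (0.60 ± 0.24, adjusted p = 0.249), overlapped between these groups and did not pass by limma. Of the hepatocyte markers 5 of 8 were kept, and Alb exceeded the 25th percentile on 0 arrays. The part of macrophages and adipocytes in the rises of Lcn2, Lbp and Cp was not tested.

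**Figure D2:**
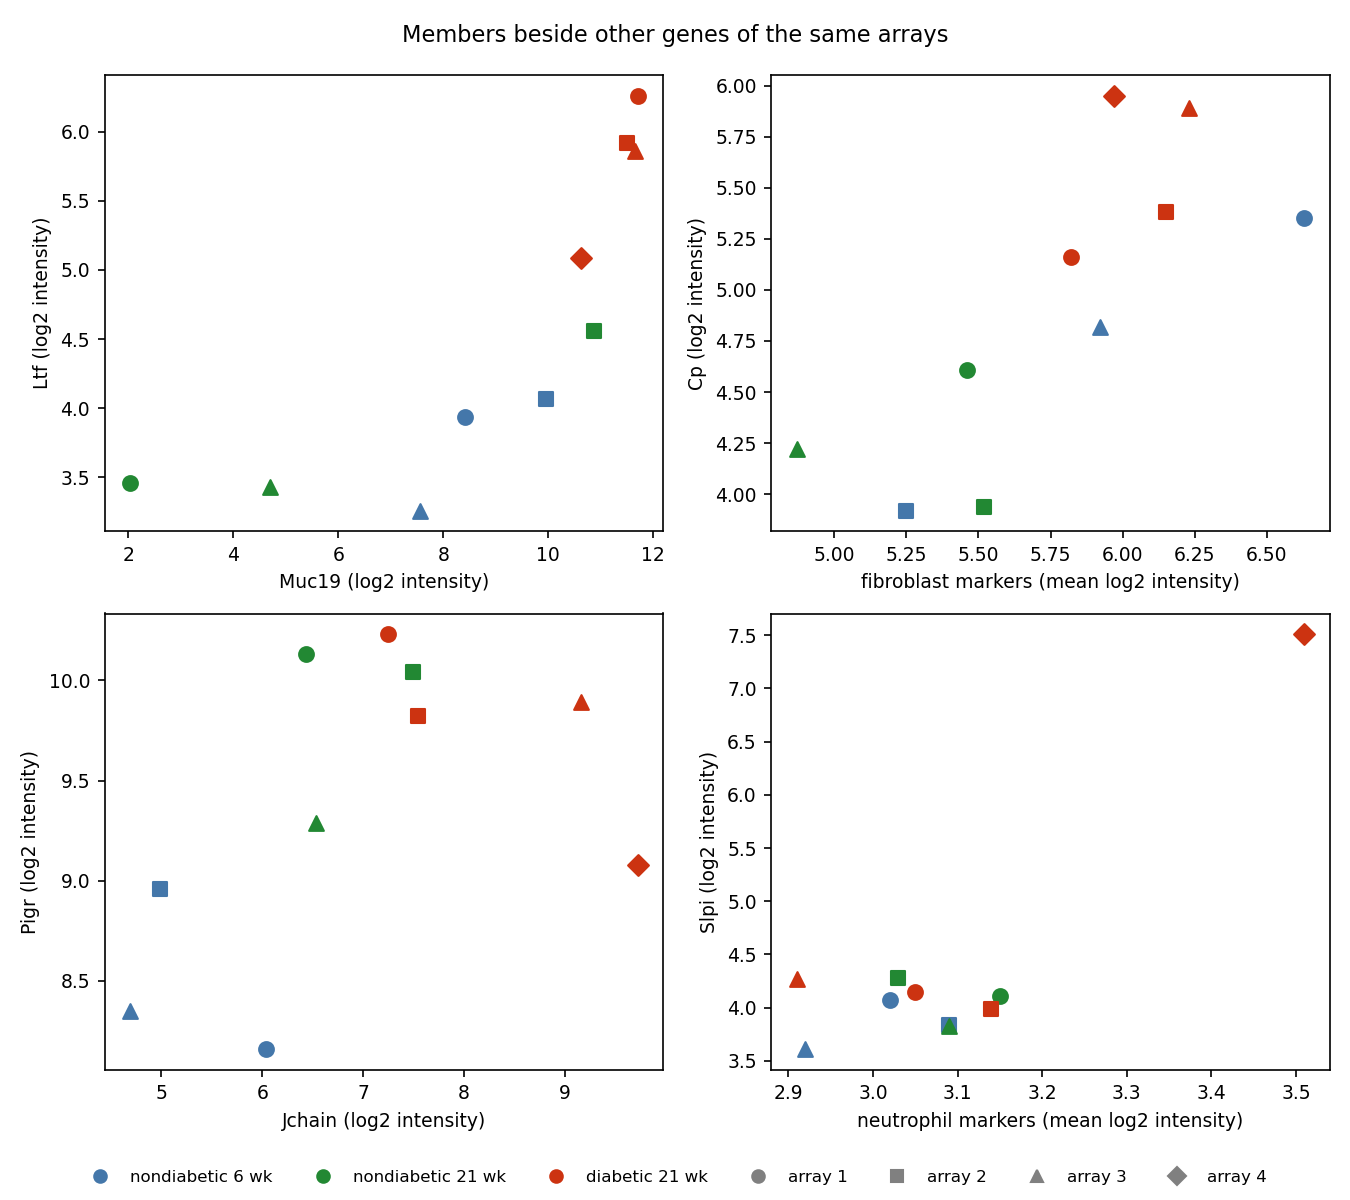
Log2 intensity of Ltf, Cp, Pigr and Slpi (vertical axes) against Muc19, the mean of the fibroblast markers, Jchain and the mean of the neutrophil markers (horizontal axes), 1 point per array, coloured by group and shaped by array number. Ltf is highest where Muc19 is above 11, and diabetic array 4 stands alone in Slpi (7.51). Its neutrophil mean (3.51) is the highest, with nondiabetic 21-week arrays at up to 3.15. Dixon's share for this mean was 0.616, below the critical share. With so few arrays and dim markers, that cannot show that the array does not stand apart. S100a8 (3.0) and S100a9 (3.41), which the filter left out of the mean, were also highest on this array. Of the kept markers, Cxcr2, Mpo, Ngp, Retnlg and Stfa2l1 were highest there, and Camp, Csf3r, Elane, Mmp8 and Mmp9 were not.

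Lpo, the salivary peroxidase, stood at 11.11, 10.88, 10.63 and 10.15 in the diabetic group, 10.35, 10.23 and 10.38 in the nondiabetic 21-week group and 10.69, 10.58 and 10.66 at 6 weeks. Its diabetic arrays spread on both sides of the tight nondiabetic ones. The change with diabetes was 0.37 ± 0.19 (adjusted p = 0.352, 95% interval −0.03 to 0.78). The 21-week nondiabetic arrays lay below those of 6 weeks without overlap (−0.33 ± 0.20), which did not pass (adjusted p = 0.748).

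Pigr, the receptor that moves IgA and IgM into secretions, was high at 21 weeks with and without diabetes. It stood at 10.23, 9.82, 9.89 and 9.08 in the diabetic group, 10.13, 10.04 and 9.29 in the nondiabetic 21-week group and 8.16, 8.96 and 8.35 at 6 weeks. Both 21-week groups lay above all 6-week arrays, and they overlapped each other. The difference with diabetes was −0.06 ± 0.28 (adjusted p = 0.941, 95% interval −0.67 to 0.55).

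Against the 6-week mice, Pigr rose 2.4-fold in the diabetic mice (1.26 ± 0.28, adjusted p = 0.0467). In nondiabetic mice it was 2.51-fold higher at 21 than at 6 weeks (1.33 ± 0.30), which did not pass (adjusted p = 0.337, rank 39 by p). Leaving out any array but nondiabetic 21-week array 3 or diabetic array 4 lost the first of these calls, with adjusted p up to 0.185. Jchain, the joining chain of the polymeric immunoglobulins that Pigr carries, was 7.25, 7.54, 9.16 and 9.72 on the diabetic arrays, 6.43, 7.49 and 6.53 on the nondiabetic 21-week arrays and 6.04, 4.99 and 4.69 at 6 weeks. Within the diabetic group the array with the highest Jchain had the lowest Pigr.

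Slpi, an inhibitor of neutrophil elastase made by epithelia and leukocytes, stood at 4.15, 3.99, 4.27 and 7.51 on the diabetic arrays. It was 4.11, 4.28 and 3.83 on the nondiabetic 21-week arrays and 4.07, 3.84 and 3.61 at 6 weeks. A single array, diabetic array 4, was high, and the other 9 lay within 3.61 to 4.28. The change with diabetes was 0.91 ± 0.65 (adjusted p = 0.529), and it was 0.06 without that array.

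Hp, haptoglobin, which captures free haemoglobin, had much the same mean in both 21-week groups and a wide spread in the diabetic one. It stood at 6.55, 7.33, 5.86 and 5.20 in diabetic mice, 6.35, 6.38 and 6.27 in nondiabetic mice of 21 weeks and 5.88, 6.30 and 6.07 at 6 weeks. The SD was 0.92 in the diabetic group and 0.05 in the nondiabetic group of the same age. The change with diabetes was −0.10 ± 0.36 (adjusted p = 0.924, 95% interval −0.88 to 0.69).

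Saa3, a serum amyloid A made outside the liver, was close to background: its values were 1.85 to 3.0 and it exceeded the array's 25th percentile on 4 of 10 arrays. Orm1, an orosomucoid, ran from 2.50 to 3.45 and was below every array's median. Neither passed in any comparison, with changes of −0.26 ± 0.23 (adjusted p = 0.615) and 0.09 ± 0.20 (adjusted p = 0.868) for diabetes. At these intensities a change of either gene may not be detectable. The orosomucoid and serum amyloid genes have close paralogs, so hybridisation may not separate them.

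**Figure D3:**
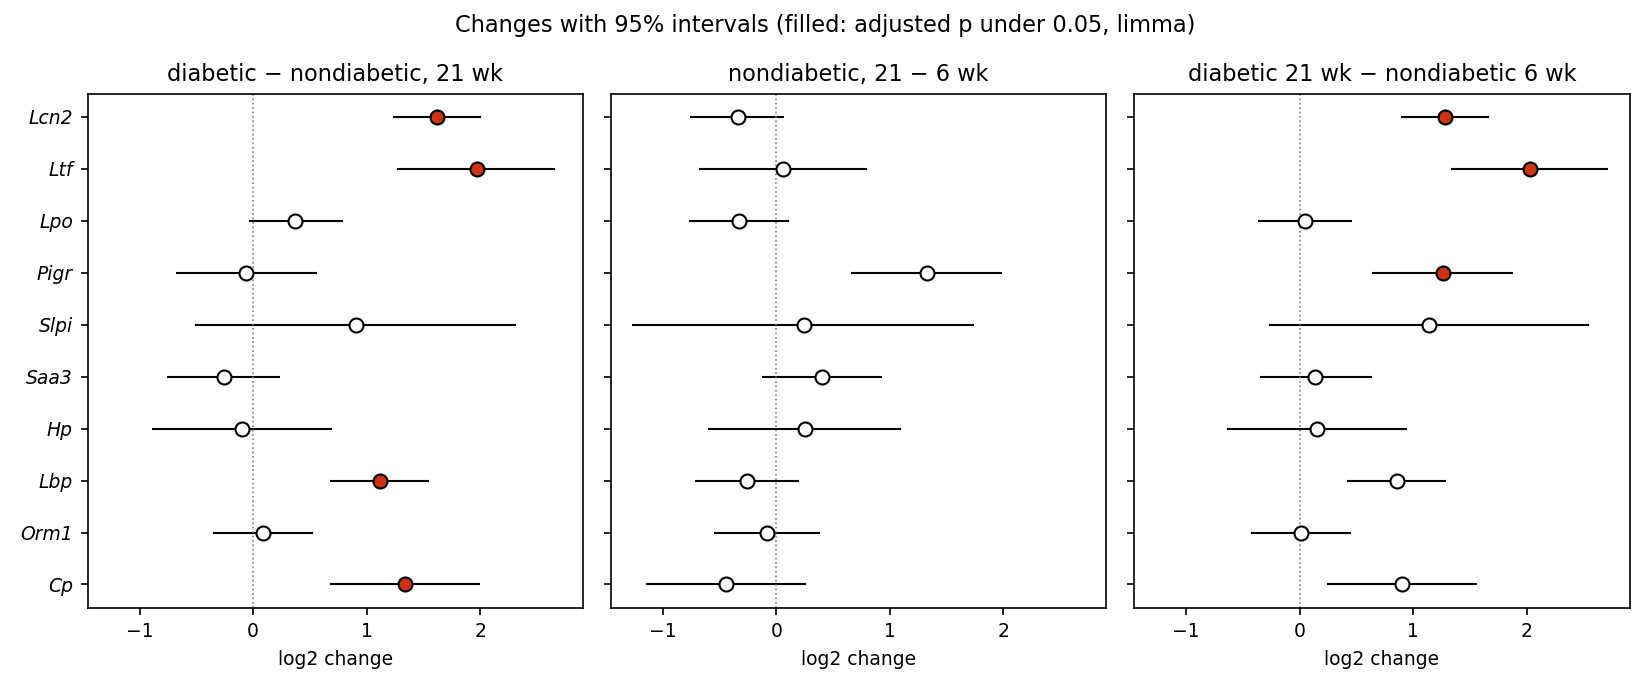
Log2 change of each gene (points) with its 95% interval (lines) in the 3 comparisons, filled where the adjusted p is under 0.05. With diabetes Lcn2, Ltf, Lbp and Cp are filled, none is with age, and Lcn2, Ltf and Pigr are in the third panel.

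Between 21 and 6 weeks without diabetes, 0 of the 10 genes passed by limma and 1, Pigr, had an unadjusted p under 0.05. Over all genes 0.0266% passed (5 of 18826), 0.00531% rising and 0.0212% falling, and 7.47% had an unadjusted p under 0.05. Pigr (higher) and Lpo (lower) were the 2 members without overlap between the ages, against 13.8% of all genes, 4.11% higher and 9.73% lower at 21 weeks. The median log2 change was −0.01 over the 10 genes and −0.06 over all. Lcn2 (−0.34 ± 0.19, adjusted p = 0.708), Lbp (−0.26 ± 0.21, adjusted p = 0.798) and Cp (−0.44 ± 0.32, adjusted p = 0.781) had negative estimates here and positive ones with diabetes. Ltf changed by 0.06 ± 0.34 (adjusted p = 0.978). The 21-week nondiabetic arrays enter both comparisons, so the opposite signs are not independent.

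The diabetic 21-week mice set against the 6-week mice share their arrays with both comparisons above. Lcn2, Ltf and Pigr rose, 0 fell and 7 did not pass, while 1.44% of all genes passed and 0.903% rose (170 rose and 102 fell, or 157 and 162 after quantile normalization). Of the 10, 5 had an unadjusted p under 0.05, against 14.9% of all genes. Lcn2, Ltf, Pigr and Lbp did not overlap between these groups, against 16.7% of all genes, 8.2% higher and 8.49% lower in diabetic mice. The median log2 change was 0.88 over the 10 genes and −0.02 over all. Lcn2 rose 2.43-fold from values of 4.81, 4.67 and 5.07 at 6 weeks (1.28 ± 0.17, adjusted p = 0.00473) and Ltf 4.08-fold from 3.94, 4.07 and 3.26 (2.03 ± 0.32, adjusted p = 0.00919). Both kept all diabetic arrays above the 6-week arrays. The Ltf call was lost without 6-week array 3 (adjusted p = 0.0628).

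Lbp (4.0, 3.52 and 3.87 at 6 weeks) also did not overlap with the diabetic arrays, and its change lay just outside the threshold (0.86 ± 0.19, adjusted p = 0.0515). It passed in 7 of 10 alternative fits and without any one of diabetic array 4 and nondiabetic 21-week arrays 1 and 3, with adjusted p down to 0.00836. On leaving out any other array it did not pass, with adjusted p up to 0.213. Cp at 6 weeks was 5.35, 3.92 and 4.82, which overlapped the diabetic range (0.90 ± 0.30, adjusted p = 0.175).

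Of 27 other genes of the acute phase response, 23 had a probe set with a single symbol and 16 of these were kept. Crp, Fga, Fgb, Fgg and Hamp fell below the filter, each above the 25th percentile on at most 1 array. With diabetes 1 of the 16 rose, Serpina3n, an acute phase protease inhibitor (2.06-fold, 1.04 ± 0.18, adjusted p = 0.015), and 0 fell. It stood at 5.23, 5.17, 5.37 and 5.42 on the diabetic arrays and at 4.22, 3.85 and 4.69 on the nondiabetic ones. The median change over the 16 was −0.11. Against 6 weeks Serpina3n (2.38-fold, adjusted p = 0.00635) and the metal-binding metallothioneins Mt2 (1.99-fold, adjusted p = 0.029) and Mt1 (1.86-fold, adjusted p = 0.0369) rose and 0 fell. With age 0 passed by limma and 2 had an unadjusted p under 0.05, against 7.47% of all genes. Those with the smallest p were Steap4 (−0.67 ± 0.25, adjusted p = 0.617) and Chil1.

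Other antimicrobial and mucosal defence genes gave more calls. Of 22 kept of 28, 5 rose with diabetes and 0 fell, with a median change of 0.27, while 1.1% of all genes rose. These were Chia1, a chitinase, Bpifb1 (4.27 ± 0.63, adjusted p = 0.00643) and Bpifa2 of the bactericidal permeability-increasing fold, Lyz1, a lysozyme (1.29 ± 0.24, adjusted p = 0.023), and Wfdc18, which has the same kind of domain as Slpi (1.57 ± 0.25, adjusted p = 0.00893). Chia1 and Bpifa2 are also in the parotid marker list above. Against 6 weeks Chia1, Jchain (3.18 ± 0.54, adjusted p = 0.0145), Wfdc18 and Bpifb1 rose and 0 fell. With age 0 passed by limma and 6 had an unadjusted p under 0.05, against 7.47% of all genes. That count includes Defb1, a beta-defensin, and Bpi, each above the 25th percentile on only 3 arrays, and is not read further. Apart from Defb1, the smallest p was of Wfdc12 (−0.63 ± 0.17, adjusted p = 0.481). Defb1 was near background and was kept only through the 3 nondiabetic 21-week arrays (2.72, 2.75 and 2.9), so its difference by age is not given as a test.

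Among 25 kept of 29 inducers and transducers of the response, 2 rose with diabetes and 0 fell, with a median change of 0.32. Cebpd, a C/EBP factor of the acute phase, stood at 5.39, 5.65, 5.64 and 5.67 on the diabetic arrays and at 4.77, 4.72 and 4.26 on the nondiabetic ones (2.01-fold, adjusted p = 0.0158). Osmr, the receptor subunit for oncostatin M, rose 1.97-fold (adjusted p = 0.0185). Cebpd also rose against 6 weeks (1.8-fold, adjusted p = 0.0369). With age 0 passed by limma and 1 had an unadjusted p under 0.05, Osmr (−0.57 ± 0.19, adjusted p = 0.572), against 7.47% of all genes. The cytokine Il6 fell below the filter, above the 25th percentile on 2 arrays. Socs3, the feedback inhibitor of STAT3 and named after its value was seen, changed by 1.12 ± 0.27 with diabetes (adjusted p = 0.065).

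Of the receptors and partners of the members, 24 of 27 were kept. Lrp1, a large endocytic receptor, rose with diabetes (2.19-fold, 1.13 ± 0.21, adjusted p = 0.0229), 0 fell, and the median change was 0.10. Against 6 weeks 0 passed by limma and 7 had an unadjusted p under 0.05, against 14.9% of all genes. Cd14, the partner to which Lbp delivers lipopolysaccharide, changed there by 0.63 ± 0.14 (adjusted p = 0.0559) and Ly96 by −0.69 ± 0.17 (adjusted p = 0.0747). With age 0 passed by limma and 2 had an unadjusted p under 0.05, against 7.47% of all genes. Ly96 had the smallest (−0.65 ± 0.18, adjusted p = 0.481).

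**Figure D4:**
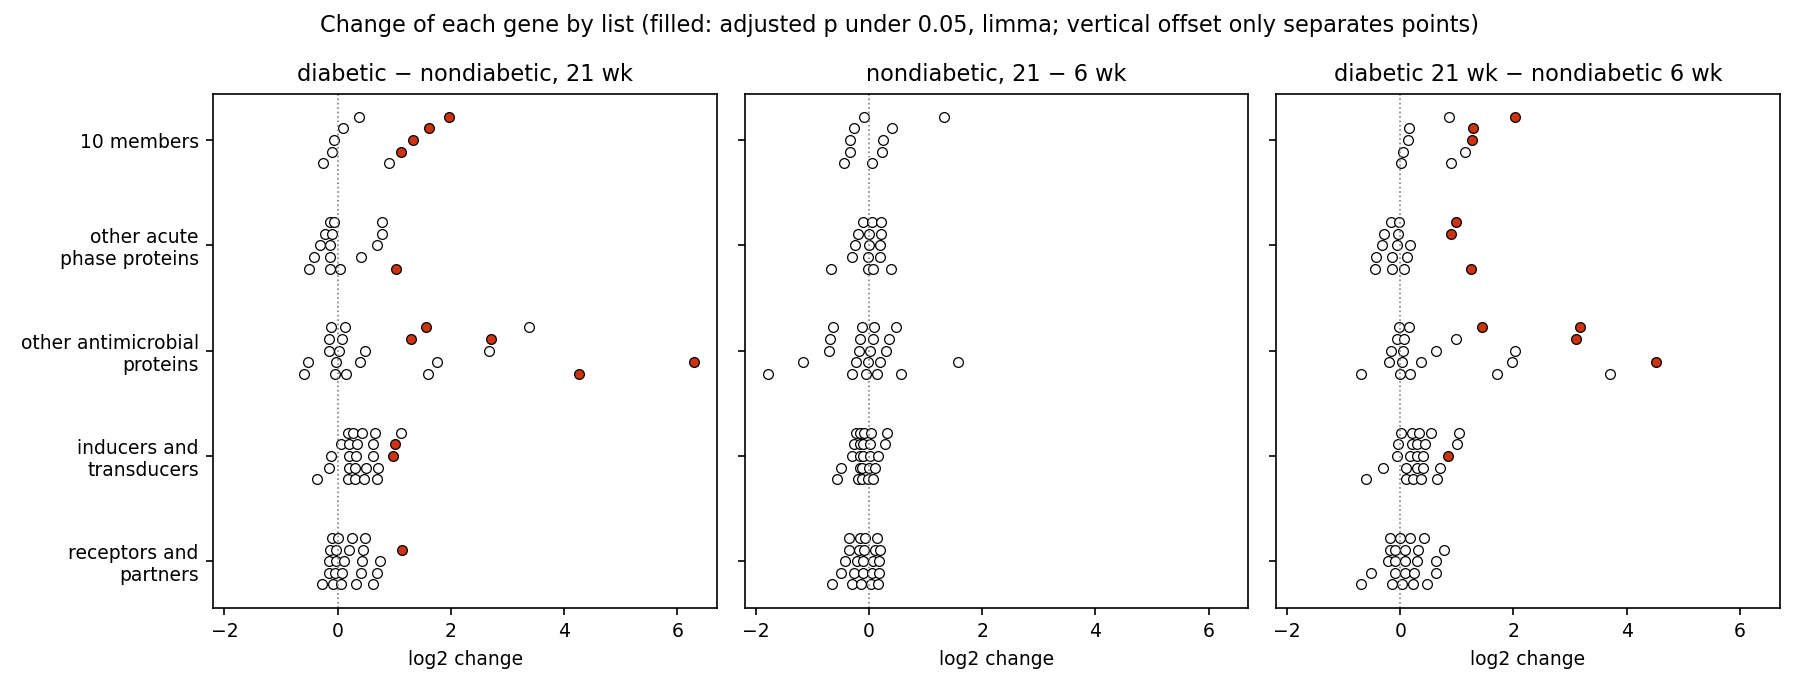
Log2 change of every kept gene of the 10 members and of 4 lists of related genes (rows) in the 3 comparisons, 1 point per gene, filled where the adjusted p is under 0.05. The highest point is Chia1, and 0 genes are filled in the comparison by age.

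The genes whose pattern over the 10 arrays was most like that of each called member were found among all genes kept, by Pearson's r, as a description without a test, since arrays of a group share their condition. Nearest to Lcn2 were Ddx6 (r = 0.976, Spearman's rho 0.879), Hnrnph1 (r = 0.976, rho 0.976) and Igf1r (r = 0.966, rho 0.855). Nearest to Ltf were Serpinb11 (r = 0.981, rho 0.939), Dnajc10 (r = 0.978, rho 0.976) and St8sia6 (r = 0.977, rho 0.939). These were picked for their likeness to Ltf, so sharing its highest nondiabetic 21-week array, array 2, is no separate evidence.

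Lbp was most like Vegfd (r = 0.979), Parp2 (r = 0.967) and Adamts1 (r = 0.963). Cp was most like Apod (r = 0.967), Abca8a (r = 0.965) and Scn7a (r = 0.960). Pigr was most like H2-M2 (r = 0.970), Selenom (r = 0.968) and Car12 (r = 0.965). Among the members themselves r over the 10 arrays was 0.95 for Lcn2 and Lbp, 0.83 for Lcn2 and Ltf and 0.82 for Lcn2 and Cp. After the group means were taken out, r was 0.73, −0.29 and 0.26.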

How the data were processed

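The deposited values are log2 intensities. The submitters' processing notes name RMA and Affymetrix Power Tools for the steps the authors took, and their versions and settings are not stated there. Of 41345 probe sets, 23521 had 1 gene symbol, 1814 had several and 16010 were unnamed here, and the latter groups were left out. Symbols were set against RefSeq by gene identifier, which changed 0. Probe sets were kept where they exceeded the array's 25th percentile on at least 3 arrays, and the brightest stood for each gene.

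All 10 arrays entered 1 limma 3.58.1 model in R 4.3.3, with a mean per group (7 residual and 5.61 prior degrees of freedom). Differences were tested two-sided with Benjamini-Hochberg adjustment over 18826 genes. Intervals of 95% are per gene, without adjustment. The steps were tested on simulated data. The 10 genes and all lists were chosen with earlier results of these data known.

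Named genes were the 10 members, up to 6 called genes of each list in a comparison (or the 2 with the smallest p where none was called), the 3 most similar genes of each called member and the defining markers of cell types. Not all are described. Alternatives were other filters, probe set rules, fits, variance priors, array weights, scalings, a replicate block and arrays left out. Same-numbered arrays did not deviate together (r of −0.118 to 0.066 over pairs), so the numbers were not taken as pairs.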

Additional observations from a re-analysis of the deposited data

Results flagged for a closer look

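In the group of 4 diabetic arrays, 27 quantities were tested (the 10 genes and the means of 17 lists). Of these, 6 had 1 array whose gap to its nearest neighbour exceeded Dixon's critical share of the whole range. Chance gives this for about 1 in 20 such groups. The 27 quantities share the same 4 arrays, so their count cannot be set against that rate. For Slpi the share was 0.923, with array 4 at 7.51 and the others at 3.99 to 4.27. For Orm1 it was 0.863, with array 3 low at 2.69, near background. The mean of the T and B lymphocyte markers gave 0.88, with array 4 high at 5.78. The mean of the macrophage markers gave 0.882, with array 3 high at 5.93. The mean of the parotid serous markers gave 0.871, with array 3 low at 10.79, and the mean of the mucous markers gave 0.877, with array 4 low at 5.56.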

How the results depend on the processing

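The 10 genes gave 4 calls with diabetes, 0 with age and 3 between diabetic and 6-week mice. On leaving out 1 array at a time the counts were 1 to 4, 0 to 0 and 1 to 4. With diabetes the count was 1 without nondiabetic 21-week array 3 and 2 without diabetic array 3, and in the last comparison it was 1 without 6-week array 3. Over all genes the counts were 271, 5 and 272, with leave-one-out ranges of 84 to 268, 1 to 10 and 48 to 393. With only the compared groups fitted, 161 genes passed with diabetes and 0 with age. A trended, robust variance prior gave 12 with age. Array weights gave 18 with age, of which 1 was a member (Pigr, adjusted p = 0.0483), and 672 between diabetic and 6-week mice. Without both nondiabetic 21-week array 3 and diabetic array 4 the counts over all genes were 175, 39 and 505, with 1 member by age (Pigr, adjusted p = 0.0206). The causes were not tested.

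With the replicate number as a block, 3, 0 and 4 members and 204, 4 and 206 genes passed, although the numbers were not found to pair the arrays. Cp lost its call with diabetes and Lbp gained one against 6 weeks (adjusted p = 0.0425).

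Of the member changes, 524 kept their direction and side of the threshold, 26 lost the threshold, 12 gained it and 32 changed sign, all of these in changes that did not pass. With diabetes Hp was 0.07 with array weights, 0.25 with the block and 0.22 without both arrays, Orm1 −0.01 with weights and −0.05 without both, and Pigr 0.16 with the block. Slpi was 0.06 to 1.23 on leaving out 1 array and −0.06 without both. With age Orm1 was 0.01 with weights and 0.01 without both. Against 6 weeks Lpo was −0.02 after quantile normalization, Saa3 −0.02 with the block and −0.02 without both, and Orm1 −0.04 under each of these. Those that changed sign on leaving out 1 array ranged, with diabetes Hp −0.46 to 0.25, Orm1 0.00 to 0.19, Pigr −0.33 to 0.16; with age Ltf −0.31 to 0.25, Orm1 −0.32 to 0.15; against 6 weeks Hp −0.21 to 0.50, Lpo −0.09 to 0.23, Orm1 −0.23 to 0.24, Saa3 −0.02 to 0.36. Without the filter, or after quantile normalization, Cp (adjusted p = 0.0602 and 0.0832) and Pigr (0.0593 and 0.0622) lost their calls.

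Low signal limits Saa3 and Orm1, and the salivary gland sampled is not given.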

Other observations

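Slpi on diabetic array 4 was 3.23 log2 units (9.39-fold) above the highest of the other 9 arrays. This was the largest such excess of any of the 18826 genes, and the only one over 3, while 97 genes exceeded the others by over 1 and 9 by over 2. The next genes, named after their values were seen and without antigen receptor segments or predicted models, were Il7r (2.26), Ms4a1 (2.17), Ptprc (2.04) and Cd69 (2.04), which are genes of lymphocytes and other leukocytes. On the same array Hp lay at 5.20, the lowest of its group, and Lpo, Pigr and Ltf were each the lowest of their group, while Lcn2 at 6.10 was within the range of the other diabetic arrays. The neutrophil markers S100a8 (3.0) and S100a9 (3.41), below the filter, were also highest on this array. It is 1 array, and no test can be made of it.

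Several antimicrobial genes outside the members varied widely within the nondiabetic groups, not all on the same arrays. Chia1 was 3.82, 3.39 and 6.18 on the nondiabetic 21-week arrays and 8.29, 4.48 and 5.98 at 6 weeks. Bpifb1 and Bpifa2, like Chia1, were highest on array 3 at 21 weeks and on array 1 at 6 weeks. Dmbt1 and Pglyrp1 are described because they shared another order of arrays with Ltf. Dmbt1, a mucosal scavenger receptor of bacteria, was 7.10, 6.56, 7.61 and 5.61 on the diabetic arrays, 1.78, 6.35 and 1.88 on the nondiabetic 21-week arrays and 2.55, 4.13 and 2.39 at 6 weeks. Pglyrp1, which binds bacterial peptidoglycan, was 10.52, 10.07, 10.45 and 8.90, then 6.07, 9.32 and 6.54, then 7.79, 8.94 and 7.31. In both, as in Ltf and Muc19, array 2 was the highest of each nondiabetic group and array 4 the lowest of the diabetic group, while the order of the other arrays differed. Their changes with diabetes were 3.38 ± 0.91 (adjusted p = 0.0936 by limma) and 2.67 ± 0.66 (adjusted p = 0.0691). They were named after their values were seen.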
